A study of Mus musculus with 10 samples.

Results

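Of 15660 genes tested in mouse neural stem cells, 1141 separated Atrx-deleted from control cells whatever the medium. A gene is called separated here when its 6 values in Atrx-deleted libraries all lay on the same side of its 4 values in control libraries. These 1141 genes are 7.29% of the genes tested. They include 527 higher in the Atrx-deleted libraries (3.37%) and 614 lower (3.92%). The deposited table lists 21101 genes, and a gene was tested when it reached 1 TPM (TPM is a share of all transcripts, corrected for gene length and library size) in at least 2 of the 10 libraries. Among the 5441 untested genes, 16 were separated upward and 29 downward.

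All lines were neural stem cells labelled p53-null and transduced with IDH1(R132H), the mutant enzyme common in lower-grade glioma, so by the labels controls and Atrx-deleted cells share both changes, which was not checked here. The controls were 2 lines, Control NSC#1 and Control NSC#2, and the Atrx-deleted cells were 3 lines, mA16d#4, mA19d#4 and mA19d#7. Each line gave 1 total RNA library from proliferation medium, which held EGF and bFGF at 20 ng/ml, and another after 8 days in differentiation medium, which was neural basal medium with B27 and without the growth factors. The labels do not say how each line was derived, so each is treated as 1 line of unknown relation to the others, and p-values measure the spread between these libraries.

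Atrx is a chromatin remodeller that, with its partner Daxx, places the histone variant H3.3 at telomeres, pericentromeric heterochromatin and other repetitive or G-rich DNA. Its loss is frequent in astrocytomas that also carry mutations of IDH1, where telomeres are often maintained without telomerase. In mouse forebrain, a few genes have been described as needing Atrx for expression, among them Csf2ra, which encodes the alpha chain of the receptor for the cytokine GM-CSF.

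The labelled cell type was checked against marker genes. Each of the 8 neural stem and progenitor markers reached 1 TPM in at least 1 library, with summed levels of 9920 to 13409 TPM in control and 10398 to 13245 TPM in Atrx-deleted libraries. Microglial markers summed to at most 8.57 TPM in control and 11.3 TPM in Atrx-deleted libraries, with Cx3cr1 and C1qa under 1 TPM. Endothelial markers reached at most 4.32 and 5.16 TPM, with Cdh5 and Cldn5 under 1 TPM, and fibroblast markers at most 2.48 and 8.03 TPM, with Col1a2 under 1 TPM. Neuronal markers summed to 667 to 817 TPM in control and 425 to 1203 TPM in Atrx-deleted libraries, and astrocyte markers to 96.3 to 999 TPM and 81.0 to 1929 TPM. The library labelled mA19d#7 in differentiation medium stood apart. Its medians over the 20 chromosomes, relative to control, correlated at r = 0.93 with those of mA16d#4 in proliferation medium and at r = 0.25 with those of its own line in proliferation medium, as a description over chromosomes that share these libraries. Without that library 1515 genes were separated and 1337 passed the test described next, of which 922 were among the 980 that passed with all libraries. The 74 named genes that passed with all libraries also passed without it.

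The size of each difference was estimated with limma over all 10 libraries with medium as a covariate, on log2(TPM + 1), and p-values were adjusted over the 15660 genes. By this fit 980 genes (6.26%) had an adjusted p under 0.05, 479 higher (3.06%) and 501 lower (3.20%) in Atrx-deleted cells. Of the separated genes 643 passed, which is 4.11% of the genes tested, and 498 did not. Another 337 genes passed although their libraries overlapped. Separation and the fit read the same values, so a pass does not support the separation. Each line appears in both media, and with the 5 line means as the samples 330 genes passed (2.11%), of which 207 were separated genes that had also passed the first fit. The mean of line mA19d#7, and so each p on line means, rests on the label of its doubtful library, and whether that label is right was not tested.

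At the extreme were genes silent in the Atrx-deleted lines. Of the separated genes, 4 were under 0.5 TPM in the 6 Atrx-deleted libraries and at 5 TPM or more in the 4 control libraries: Csf2ra, Rimbp2, Cldn34c1 and Gpx7. In the opposite direction there were 0 such genes, a count from levels alone with no test. Their promoters are shown because Atrx has been described at CpG-rich and G-rich DNA, with that of Col4a1, a strongly higher gene, for contrast. Each runs 5′ to 3′ from 250 bases before to 50 bases after the RefSeq start (GRCm38.p6), with CG dinucleotides in capitals. The Csf2ra window is chr19:61228369-61228668, minus strand, that of Rimbp2 chr5:128953437-128953736, minus strand, that of Cldn34c1 chrX:123103273-123103572, plus strand, that of Gpx7 chr4:108406664-108406963, minus strand, and that of Col4a1 chr8:11312777-11313076, minus strand.
Csf2ra: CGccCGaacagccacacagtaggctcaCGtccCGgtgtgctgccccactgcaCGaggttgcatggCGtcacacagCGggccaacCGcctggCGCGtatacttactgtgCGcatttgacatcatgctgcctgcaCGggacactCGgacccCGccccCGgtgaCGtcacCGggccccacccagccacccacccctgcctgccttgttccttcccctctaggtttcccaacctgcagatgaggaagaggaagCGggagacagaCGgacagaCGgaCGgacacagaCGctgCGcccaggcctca
Rimbp2: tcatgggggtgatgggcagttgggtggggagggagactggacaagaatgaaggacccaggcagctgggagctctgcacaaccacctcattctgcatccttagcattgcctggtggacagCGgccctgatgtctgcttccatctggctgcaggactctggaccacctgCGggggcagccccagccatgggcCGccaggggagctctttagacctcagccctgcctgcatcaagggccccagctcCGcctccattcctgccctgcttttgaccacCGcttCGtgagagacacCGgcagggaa
Cldn34c1: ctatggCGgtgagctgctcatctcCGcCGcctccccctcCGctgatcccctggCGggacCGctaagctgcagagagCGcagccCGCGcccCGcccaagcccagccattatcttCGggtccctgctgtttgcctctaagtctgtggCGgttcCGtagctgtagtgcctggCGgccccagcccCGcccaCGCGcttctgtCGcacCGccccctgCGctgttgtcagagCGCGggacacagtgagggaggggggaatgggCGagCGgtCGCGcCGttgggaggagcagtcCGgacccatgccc
Gpx7: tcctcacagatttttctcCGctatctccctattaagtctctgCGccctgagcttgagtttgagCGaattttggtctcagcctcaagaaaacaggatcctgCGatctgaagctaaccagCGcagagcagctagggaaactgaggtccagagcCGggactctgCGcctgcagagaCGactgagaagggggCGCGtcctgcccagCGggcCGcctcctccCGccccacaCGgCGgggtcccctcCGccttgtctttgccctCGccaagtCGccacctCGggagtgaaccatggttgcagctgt
Col4a1: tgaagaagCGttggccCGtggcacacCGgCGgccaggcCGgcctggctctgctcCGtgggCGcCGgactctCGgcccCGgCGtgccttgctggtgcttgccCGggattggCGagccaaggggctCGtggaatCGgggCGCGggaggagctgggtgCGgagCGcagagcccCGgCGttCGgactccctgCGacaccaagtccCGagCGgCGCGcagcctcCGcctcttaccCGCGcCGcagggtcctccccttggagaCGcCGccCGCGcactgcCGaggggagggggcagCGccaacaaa

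The windows held 23 CG dinucleotides in Csf2ra, 7 in Rimbp2, 28 in Cldn34c1, 19 in Gpx7 and 37 in Col4a1. Over the 27025 promoters of the RefSeq table the median was 7, and 43.9% held at least 10. Over the 12090 tested genes with an entry the median was 20, and 77.4% held at least 10, so Csf2ra and Gpx7 lay close to that median and Rimbp2 below it. A pattern of 4 runs of at least 3 G with 1 to 7 bases between runs, searched on both strands, was found in the windows of Csf2ra, Rimbp2 and Cldn34c1 and not in those of Gpx7 and Col4a1. Col4a1 does not stand for the higher genes in this. Among other large rises, the windows of Cacng5, Vat1l and Gnao1 held the pattern, and those of Ramp1, Capn6 and Shisa3 did not. The pattern occurs in 18.1% of the table's promoters and in 27.1% of those of tested genes. These matches describe the letters of the windows. Promoter entries were found for 894 of the 1141 separated genes (78.4%) and 77.2% of the genes tested, too few to compare these groups.

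Atrx itself, on chrX:105797615-105929403 of GRCm38 (mm10), was lower in the 6 libraries of deleted lines and still measured there. Its levels were 163, 149, 128 and 127 TPM in control libraries, given for Control NSC#1 and #2 in proliferation and then in differentiation medium, an order kept below. In Atrx-deleted libraries they ranged from 42.8 to 74 TPM (median 54.2). The ranges did not overlap, and the Atrx-deleted mean of 57.3 ± 12.8 TPM (SD, n = 6 libraries of 3 lines) was 40.5% of the control mean of 141 ± 17.5 TPM (SD, n = 4 libraries of 2 lines). The log2 difference was -1.31 (SE 0.15, adjusted p = 0.00156). Permuting the genotype of the 5 line means in an exact two-sided permutation test gave p = 0.1, the smallest value that 2 against 3 lines allow. The deposited values are per gene, so reads of a deleted exon could not be looked at separately.

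Csf2ra, on chr19:61223957-61228429, showed the widest gap between genotypes. Control libraries held 26.3, 15.2, 26.6 and 16.9 TPM, and Atrx-deleted libraries held 0.0039 to 0.091 TPM (median 0.021). Its fitted log2 difference of -4.39 (SE 0.26, adjusted p = 1.26e-05) was nearly the same in proliferation medium (-4.32) and differentiation medium (-4.46). On the 5 line means its adjusted p was 0.00563. Csf2ra is also expressed by microglia and macrophages. Of the 7 tested genes on the list of that cell type it was the separated one (14.3%, against 7.29% of all genes tested). Of 6 microglial markers 4 reached 1 TPM in some library, and Cx3cr1 and C1qa did not. Aif1 reached 7.15 TPM and Ptprc 3.2 TPM in control against at most 1.47 and 0.073 TPM in Atrx-deleted libraries, while P2ry12 reached 1.11 and 11.2 TPM. The part of such cells in the Csf2ra difference was not tested.

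Rimbp2, a presynaptic active-zone protein (chr5:128757791-128953486), was at 8.6, 12.1, 15.4 and 10.6 TPM in control and at 0.0039 to 0.013 TPM in Atrx-deleted libraries. Gpx7, a peroxidase of the endoplasmic reticulum (chr4:108400390-108406961), was at 5.08, 6.55, 8.72 and 10.4 TPM in control and at 0.0039 to 0.022 TPM in Atrx-deleted libraries. Both were expressed in each control line and near the lowest value of the table, 0.0039 TPM, in each deleted line. Cldn34c1, a claudin-family gene on chromosome X, was at 9.48 to 15.2 TPM in control and at 0.0070 to 0.439 TPM in Atrx-deleted libraries. Cldn34c1 has close copies, so its reads may be shared with them and its value is uncertain. The log2 differences were -3.63 (SE 0.25, adjusted p = 5.03e-05) for Rimbp2, -3.07 (adjusted p = 0.00021) for Gpx7 and -3.51 (adjusted p = 9.4e-05) for Cldn34c1.

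**Figure D1:**
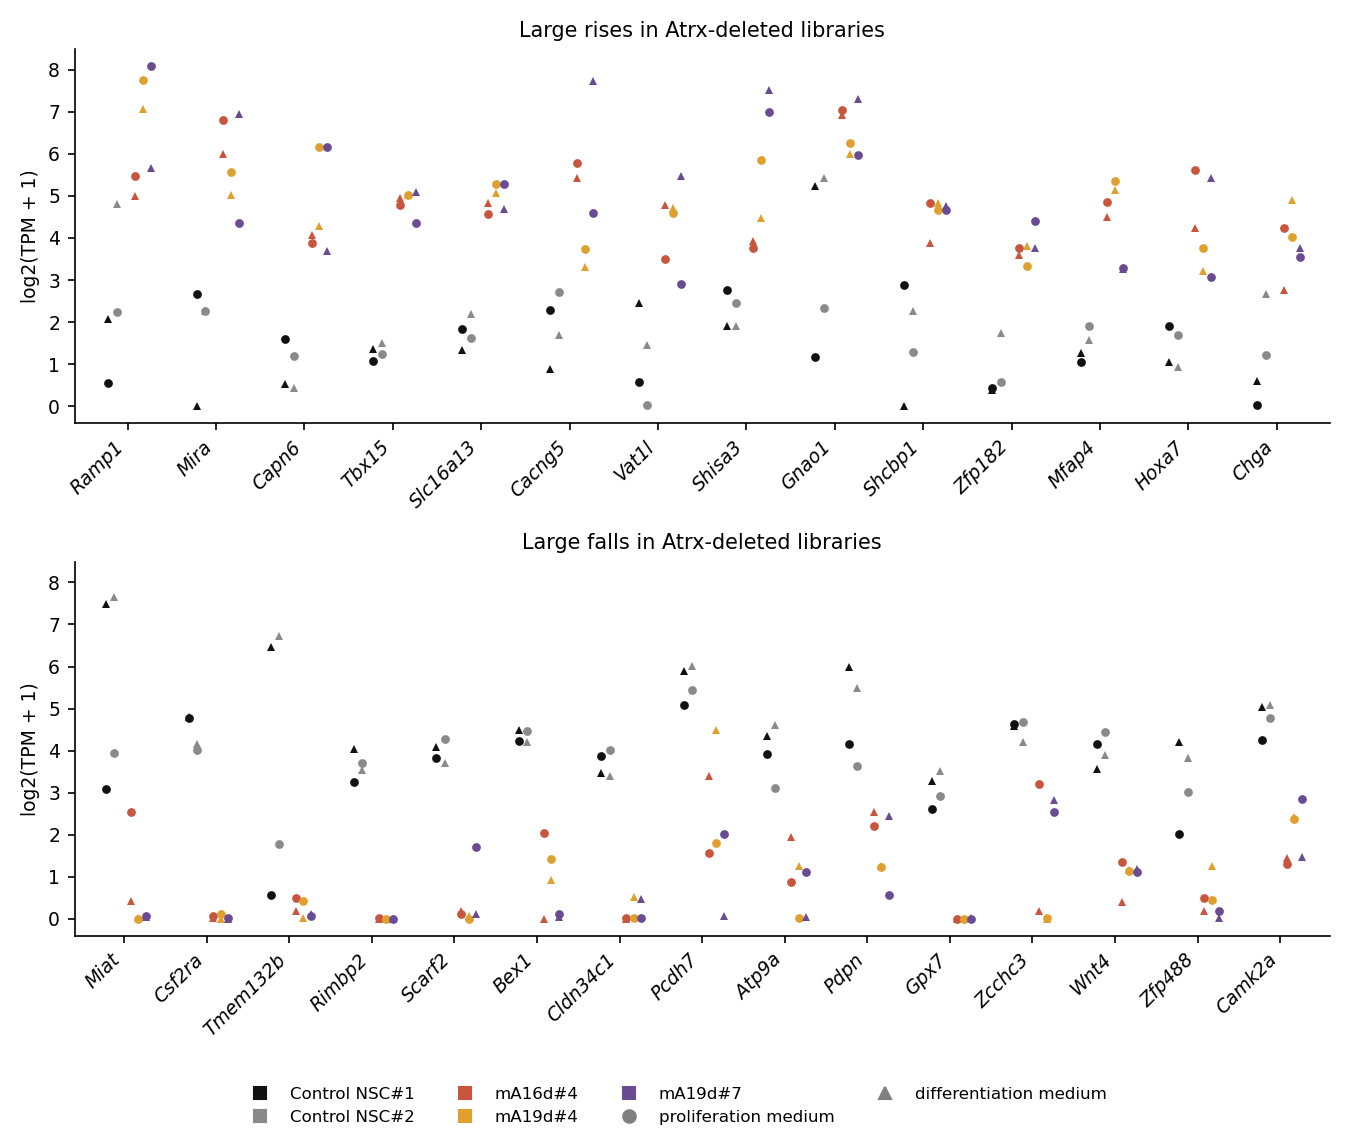
Level of named separated genes in each of the 10 libraries on the log2(TPM + 1) axis, with control and Atrx-deleted libraries in separate colours and the media by marker. In each gene shown the Atrx-deleted points lie on one side of the control points, with Csf2ra and Rimbp2 near 0 in the 6 Atrx-deleted libraries.

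Among further genes with a large fall, several act in adhesion, signalling or neurons. Wnt4, a secreted Wnt ligand, was at 16.9, 20.8, 10.8 and 13.8 TPM in control and at 0.325 to 1.55 TPM (median 1.22) in Atrx-deleted libraries, a log2 difference of -2.96 (SE 0.25, adjusted p = 0.00021). Bex1, a small adaptor protein of neural cells, was at 17.6 to 21.6 TPM in control and at 0.0070 to 3.14 TPM in Atrx-deleted libraries, with a log2 difference of -3.59 (SE 0.39, adjusted p = 0.00109). Both genes fell in the 3 deleted lines and in both media. Scarf2, a scavenger-receptor family protein, was at 13.2, 18.5, 16 and 12 TPM in control and at 0.0039 to 2.27 TPM (median 0.087) in Atrx-deleted libraries. The highest of those 6 values came from mA19d#7 in proliferation medium. Camk2a, the alpha subunit of a calcium- and calmodulin-dependent kinase of neurons, fell from 27.3 ± 6.81 TPM to 3.3 ± 1.93 TPM, and Pdpn, the membrane glycoprotein podoplanin, from 33.9 ± 24.1 TPM to 2.69 ± 1.84 TPM. Atp9a, a phospholipid-flippase family member, had a log2 difference of -3.12 and Zcchc3, a zinc-knuckle nucleic-acid-binding protein, of -3.07. Zcchc3 varied between deleted libraries, at 0.0053 to 8.29 TPM, and its adjusted p on line means was 0.0721.

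The large rises included developmental regulators and genes of diverse function. Tbx15, a T-box factor of limb and skeletal development, was at 1.09, 1.36, 1.56 and 1.85 TPM in control and at 19.6 to 33.2 TPM (median 30.6) in Atrx-deleted libraries. Its lowest Atrx-deleted value was several times its highest control value. The log2 difference was 3.58 (SE 0.19, adjusted p = 9.22e-06), with an adjusted p on line means of 0.00563. Slc16a13, a monocarboxylate transporter family member, was at 2.58, 2.06, 1.5 and 3.56 TPM in control and at 22.7 to 38 TPM (median 29.8) in Atrx-deleted libraries, a log2 difference of 3.21 (SE 0.23, adjusted p = 7.1e-05). Shcbp1, an adaptor-binding protein of dividing cells, rose by 2.997 and Zfp182, a zinc finger gene on chromosome X, by 2.99 on the log2 scale. Zfp182 was at 0.343, 0.5, 0.299 and 2.35 TPM in control, so it needed Atrx-deleted libraries to be tested. Capn6, a calpain that lacks protease activity, was at 0.353 to 2.02 TPM in control and at 11.9 to 70.2 TPM in Atrx-deleted libraries. Mfap4, an extracellular microfibril protein, was at 1.07 to 2.73 TPM in control and at 8.64 to 39.7 TPM in Atrx-deleted libraries. These ranges show that the rises were of uneven size between the deleted libraries.

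A few large rises varied widely between deleted libraries. Ramp1, a partner protein of calcitonin-family receptors, was at 0.462, 3.7, 3.19 and 26.9 TPM in control libraries and at 30.9 to 269.7 TPM (median 91) in Atrx-deleted libraries. The highest control value, Control NSC#2 in differentiation medium, was close to the lowest Atrx-deleted value, and the adjusted p on line means was 0.0519. Shisa3 ranged from 12.5 to 183 TPM in Atrx-deleted libraries against 2.74 to 5.82 TPM in control, and Cacng5, an auxiliary subunit of AMPA receptors, from 8.93 to 209.7 TPM against 0.839 to 5.55 TPM. Their adjusted p on line means were 0.105 and 0.0696, so neither passed with the line as the sample. Chga, the secretory-granule protein chromogranin A, was at 0.021 to 5.36 TPM in control and 5.79 to 28.8 TPM in Atrx-deleted libraries.

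Over the 1141 separated genes the median size of the log2 difference was 0.71, against 0.28 over all genes tested, a contrast that the choice of genes builds in. The sizes ran from 0.20 to 5.02. At least 1 on the log2 scale was reached by 325 genes, 163 higher and 162 lower, and at least 3 by 25 genes, 12 higher and 13 lower. Just inside the rule lay Cog6, Mrps10 and Nrde2, whose genotypes were 0.001 apart on the log2 scale. Just outside lay Atn1, Gm608 and Mcm2, whose nearest values were tied to that precision. Mcm2 nevertheless had a log2 difference of 1.07, so separation and size are different measures.

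The separated genes were compared between media, to see how even each genotype difference was. The genotype difference differed between media, by an interaction term adjusted over all genes tested, in 1 gene (0.00639%), Tmem132b. At an unadjusted p under 0.05 the interaction was seen in 44 separated genes (3.86%) and in 1098 of all genes tested (7.01%). A rule that asks for the same side in both media favours genes with like differences, so these shares are descriptive. For the median separated gene the smaller of the 2 medium-specific differences was 0.71 of the larger. In 947 genes it was at least 0.5 of the larger. The difference was larger in differentiation medium for 655 genes and in proliferation medium for 486.

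The most even of the large differences were those of Nr2f2, En1 and Tbx15 among rises. Nr2f2, an orphan nuclear receptor, was at 3.74, 7.29, 3.06 and 6.74 TPM in control and at 14.7 to 22.2 TPM (median 16.5) in Atrx-deleted libraries, with log2 differences of 1.60 in proliferation and 1.59 in differentiation medium. En1, a homeobox gene of the midbrain and hindbrain, was at 0.465 to 1.23 TPM in control and at 2.29 to 10.9 TPM in Atrx-deleted libraries, with 1.81 and 1.82. The genotypes of both genes were apart in each medium. Among falls, Cntn1, an adhesion protein of axons and oligodendrocyte precursors, had -1.99 and -1.93, and Tnfaip8, a regulator of apoptosis, -1.11 and -1.07. Cntn1 was at 188, 199, 299.6 and 319 TPM in control and at 35 to 176 TPM (median 54.5) in Atrx-deleted libraries, the highest of which was mA19d#7 in differentiation medium.

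Other separated genes kept their side but not their size. Miat, a long noncoding RNA of neural cells, was at 7.47, 14.4, 178 and 200.3 TPM in control libraries, and at 0.0056 to 4.87 TPM (median 0.043) in Atrx-deleted libraries. Its control level was far higher in differentiation than in proliferation medium, and the log2 difference was -2.64 in proliferation and -7.41 in differentiation medium. Gnao1, the alpha subunit of the neuronal G protein Go, went the other way round, with a log2 difference of 4.68 in proliferation and 1.42 in differentiation medium. Control libraries of Gnao1 were at 1.26, 4.01, 36.5 and 41.6 TPM and Atrx-deleted libraries at 61.4 to 157 TPM (median 98). Both control lines held more Gnao1 in differentiation medium, while the deleted lines were high in both media. The medium itself, over both genotypes, passed the test in 1328 of all genes (8.48%) and in 24 of the separated genes (2.1%). A gene that moves strongly with medium is less able to be separated across both, so this share too is descriptive.

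**Figure D2:**
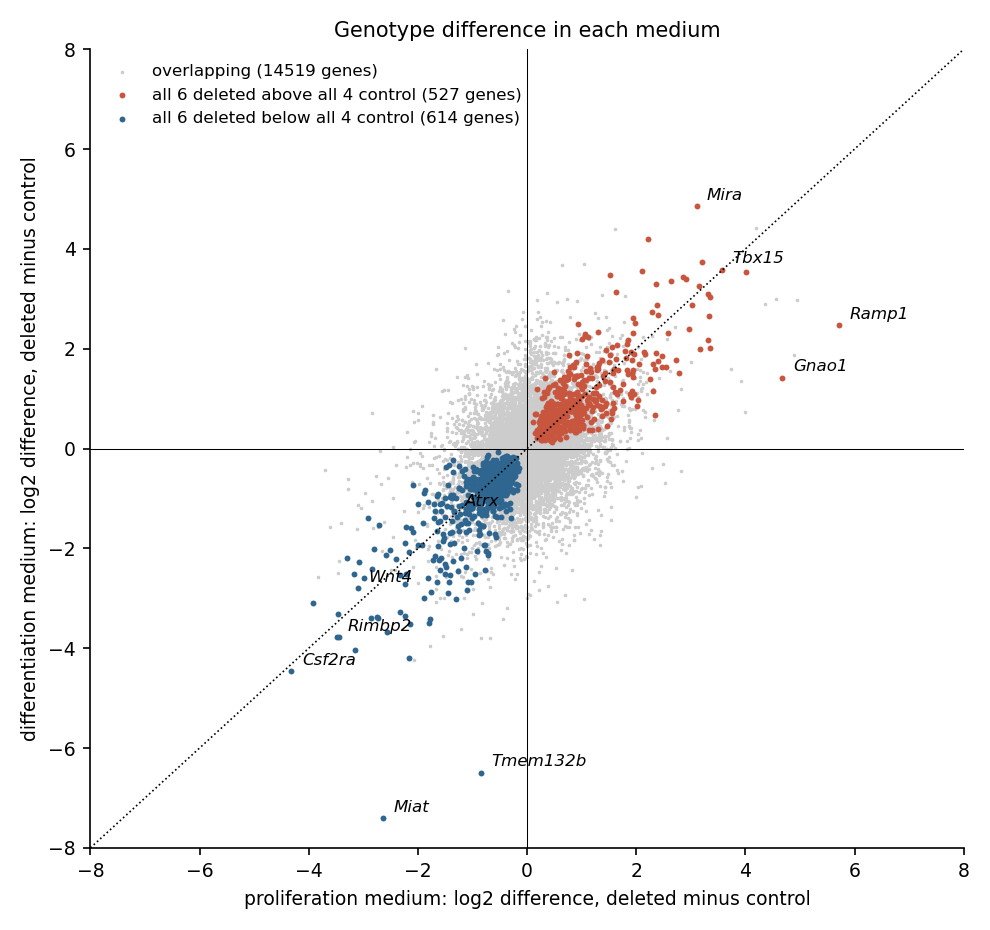
Log2 difference between Atrx-deleted and control lines in proliferation medium (x axis) against that in differentiation medium (y axis), 1 point a tested gene, with separated genes coloured. Separated genes lie in the quadrants of equal sign, most near the diagonal, with Miat and Tmem132b far below it.

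Several Hox genes were separated upward. Hox factors specify position along the body axis and are held silent by Polycomb complexes in forebrain-derived cells. Of 39 Hox genes listed 35 were in the table and 19 were tested. Among these 7 were separated upward and 0 downward, against 3.37% and 3.92% of all genes tested, and the same 7 passed the fit. Some of the 19 were near 0 in control and passed the filter through Atrx-deleted libraries alone, Hoxa13, Hoxb3 and Hoxc4 among them. Their direction was therefore fixed by the filter, and no median is given. Hoxa9, counted among the 7, was at 0.0039, 0.023, 0.0039 and 1.04 TPM in control, so it too needed Atrx-deleted libraries to pass the filter. With the line as the sample 4 passed, against 181 upward of all 15660 genes tested. Without the library labelled mA19d#7 in differentiation medium 7 passed, and after centring each chromosome 5. Of all genes tested 683 and 411 then passed upward. The 7 genes were Hoxa2, Hoxa3, Hoxa4, Hoxa6, Hoxa7, Hoxa9 and Hoxa10, all of the Hoxa cluster on chromosome 6.

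Within that cluster Hoxa4 was at 0.847, 2.16, 1.35 and 8.47 TPM in control and 11.6 to 27.5 TPM (median 22) in Atrx-deleted libraries. Hoxa7 was at 2.72, 2.23, 1.08 and 0.908 TPM in control and 7.47 to 48.2 TPM (median 15.2) in Atrx-deleted libraries. Hoxa3 was at 14.1, 13.1, 1.08 and 7.53 TPM in control and 19.7 to 66.5 TPM (median 37.1) in Atrx-deleted libraries. The log2 differences were 2.68 (SE 0.42, adjusted p = 0.00662) for Hoxa4, 2.83 (SE 0.52, adjusted p = 0.0121) for Hoxa7 and 2.28 (SE 0.35, adjusted p = 0.00604) for Hoxa3. Hoxa10 was at 0.436 to 9.66 TPM in control and 10.3 to 39.6 TPM in Atrx-deleted libraries, with the nearest values almost touching. The noncoding transcript Mira, which lies within the cluster, was at 5.36, 3.78, 0.0039 and 3.78 TPM in control and 19.4 to 123 TPM (median 54.2) in Atrx-deleted libraries. Mira overlaps Hoxa7, and whether strand was used in counting is not given in the sources used here, so their reads cannot be told apart. The antisense transcripts Hoxaas2 and Hoxaas3 were likewise separated and higher. Hoxaas3 was at 0.783 TPM or less in control and passed the filter through Atrx-deleted libraries alone.

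Genes of the cluster that were not separated varied between lines or media. Hoxa5 was already at 78.3, 54, 25 and 33.2 TPM in control libraries, against 52.8 to 79.3 TPM (median 63.8) in Atrx-deleted libraries. Hoxa13 reached 4.45 TPM in the library of mA16d#4 in proliferation medium and 3.1 TPM in the library labelled mA19d#7 in differentiation medium, and was near 0 in both mA19d lines in proliferation medium. Chromosome 6, which holds the cluster, was above control as a whole in the 6 Atrx-deleted libraries, by less than these differences.

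**Figure D3:**
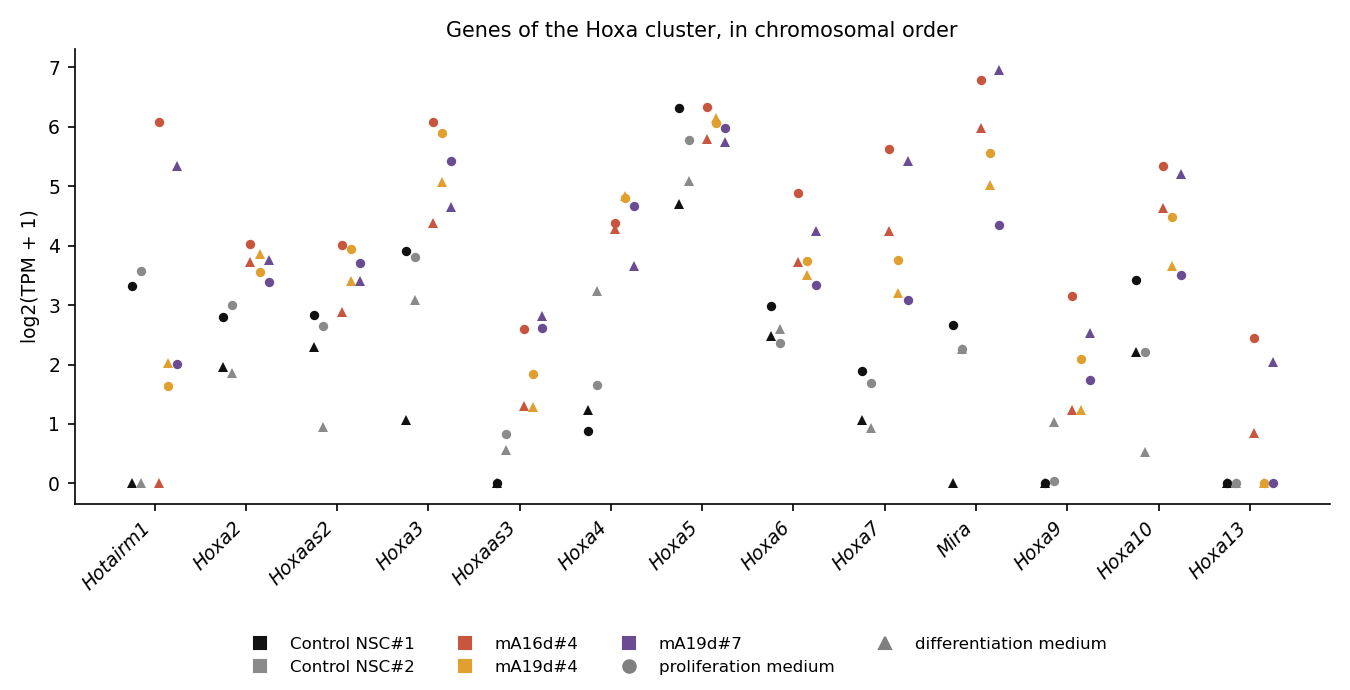
Log2(TPM + 1) of genes of the Hoxa cluster in each library, ordered along the cluster, with control and Atrx-deleted libraries in separate colours. From Hoxa2 to Hoxa10 most genes show Atrx-deleted points above control points, while Hotairm1, Hoxa5 and Hoxa13 overlap.

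Polycomb genes encode the repressors of Hox loci. Of 27 tested, 5 were separated upward and 0 downward, against 3.37% and 3.92% of all genes tested. By the fit 4 passed upward, and 1 with the line as the sample, with a median log2 difference of 0.17. After centring each chromosome 3 were separated upward and 1 downward, against 453 and 547 of the 15660 genes tested. By the fit on centred values 3 passed upward and 1 downward, against 411 and 403 of all genes tested. Cbx2, a chromodomain subunit, went from 27.9 ± 4.14 TPM to 55.1 ± 13.9 TPM, and Cbx7, a related subunit, from 18.4 ± 2.21 TPM to 35 ± 7.58 TPM. On line means the adjusted p was 0.0694 for Cbx2 and 0.0422 for Cbx7. Pcgf6, a ring-finger subunit, rose by 0.66, a call lost after centring each chromosome, and Rnf2, the catalytic ubiquitin ligase, by 0.58 on the log2 scale. The fifth, Rbbp4, a histone-binding subunit, was separated at 0.39 with an adjusted p of 0.0698.

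In the Atrx pathway itself, 2 of 26 tested genes were separated (7.69%, near the 7.29% of all genes tested). These were Atrx, the deleted gene, downward and H3f3a upward. H3f3a, which encodes H3.3, was at 686, 622, 441 and 609 TPM in control and 803 to 1094 TPM (median 939) in Atrx-deleted libraries, a log2 difference of 0.70 (SE 0.16, adjusted p = 0.0289). It did not pass on line means (adjusted p = 0.0691) or after centring each chromosome. H3f3a has near-identical copies, so its level is uncertain. H3f3b, the other H3.3 gene, had a log2 difference of -0.04 (SE 0.24, adjusted p = 0.942), and Daxx, the partner of Atrx, of 0.04 (SE 0.21, adjusted p = 0.94). Neither was separated. Of 11 genes listed as dependent on Atrx 7 were in the table and 3 were tested. The 3 were separated, against 7.29% of all genes tested, but they include Atrx, the deleted gene. Besides Atrx, Csf2ra was lower, and Nprl3, next to the alpha-globin genes, was separated upward at 0.34 with an adjusted p of 0.145.

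Genes of the neural stem cell state were mixed. Sox1, a factor of neural progenitors, was at 10.8, 13.8, 19.8 and 32.6 TPM in control and 48 to 135 TPM (median 62.2) in Atrx-deleted libraries, a log2 difference of 1.97 (SE 0.33, adjusted p = 0.00894). Sox9 rose by 0.71 and Prom1, the membrane protein prominin-1, by 1.83 on the log2 scale. On line means Sox1 passed (adjusted p = 0.0121), and Sox9 (0.0537) and Prom1 (0.1) did not. These 3 were the separated genes of 19 tested, 15.8% against 7.29% of all genes tested. After centring each chromosome Sox9 and Prom1 were no longer separated. Of the 19 genes 1 was then separated upward and 1 downward, against 453 and 547 of the 15660 genes tested. Sox2, with a log2 difference of 0.23 (SE 0.19, adjusted p = 0.478), and Nes, with 0.42 (SE 0.16, adjusted p = 0.131), were not separated.

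In the oligodendrocyte lineage, 4 of 17 tested genes were separated downward and 1 upward, against 3.92% and 3.37% of all genes tested. Of these genes, 14 of 17 had a negative difference, and the median log2 difference was -0.62. Without the library labelled mA19d#7 in differentiation medium 4 were separated downward and 2 upward, against 761 and 754 of the 15660 genes tested. Bcas1, a marker of early myelinating cells, was at 94.8, 89.3, 81.9 and 86.5 TPM in control and 8.01 to 31.6 TPM (median 20.4) in Atrx-deleted libraries, a log2 difference of -2.27 (SE 0.31, adjusted p = 0.00382). Cspg4, the NG2 proteoglycan of precursors and pericytes, was at 189, 225, 99.5 and 97.8 TPM in control and 12.1 to 79.3 TPM (median 62.2) in Atrx-deleted libraries. In neither gene did a deleted library reach the lowest control library. Zfp488, a zinc finger regulator of oligodendrocytes, was at 3.04, 7.14, 17.5 and 13.2 TPM in control and 0.022 to 1.39 TPM (median 0.261) in Atrx-deleted libraries. In contrast Nkx2-2, a homeobox factor of the lineage, rose from 14.7 ± 4.28 TPM to 40.5 ± 14 TPM. Olig2 was not separated, with a log2 difference of -0.34 (SE 0.26, adjusted p = 0.433). In bulk RNA, fewer cells of a type and less RNA per cell cannot be told apart. The summed oligodendrocyte markers were at 3725 to 4253 TPM in control and 1866 to 4790 TPM in Atrx-deleted libraries.

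Neuronal genes moved in both directions. Among 19 pan-neuronal genes 1 was separated upward and 1 downward (10.5%, against 7.29% of all genes tested). Without the library labelled mA19d#7 in differentiation medium 3 and 1 were separated, against 754 and 761 of the 15660 genes tested. Nefl, the light neurofilament, was at 0.0056 to 0.023 TPM in control and 1.25 to 5.0 TPM in Atrx-deleted libraries. It passed the filter through Atrx-deleted libraries alone, so it could be separated upward only. Rbfox3, the neuronal nuclear antigen, was at 2.37, 4.86, 9.88 and 12.8 TPM in control and 0.013 to 2.17 TPM (median 0.482) in Atrx-deleted libraries. Neurog2, a proneural factor, was at 0.945 to 2.39 TPM in control and at 0.0048 to 0.091 TPM in Atrx-deleted libraries. Neurog2 passed the filter through control libraries alone. The upper-layer factor Cux2 rose by 0.96 on the log2 scale, a call lost after centring. Tubb3 was not separated, with a log2 difference of 0.74 (SE 0.48, adjusted p = 0.362). Without the library labelled mA19d#7 in differentiation medium it was at 1.18 with an adjusted p of 0.0108, so that library decided the call. Of 21 astrocyte genes Sox9 was separated upward and Ntsr2, a neurotensin receptor of astrocytes, downward (9.52%, against 7.29% of all genes tested). Ntsr2 was at 49.6, 63.7, 78.1 and 90.6 TPM in control and 4.52 to 40.6 TPM (median 8.41) in Atrx-deleted libraries. Gfap, the astrocyte filament protein, was not separated. It reached 1411 TPM in the library labelled mA19d#7 in differentiation medium and lay between 3.49 and 79.5 TPM in the other 5 Atrx-deleted libraries.

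Basement membrane collagen was among the clear rises. Col4a1 was at 16.7, 12.4, 10.2 and 12.7 TPM in control and 37.2 to 129 TPM (median 115) in Atrx-deleted libraries, and Col4a2 at 6.7, 5.68, 3.12 and 7.75 TPM and 9.81 to 44.4 TPM (median 29.1). Both chains rose in the 3 deleted lines, by 2.69 (SE 0.28, adjusted p = 0.000944) and 2.08 (SE 0.32, adjusted p = 0.00623) on the log2 scale. The 2 genes lie head to head on chromosome 8 and overlap at their starts. With Tbx15 they were the 3 separated genes of 21 on the mesenchymal and extracellular matrix list (14.3%, against 7.29% of all genes tested). Of 4 fibroblast markers Col1a2 was under 1 TPM in both genotypes, while Col1a1 was at 0.012 to 2.37 TPM in control and 1.48 to 4.41 TPM in Atrx-deleted libraries. Dcn reached 0.022 and 3.6 TPM and Lum 0.023 and 1.62 TPM. Their part in the collagen difference was not tested.

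Protocadherins are adhesion proteins of neural cells. Of 23 listed protocadherins 22 had a negative difference, with a median of -0.45. Of the 23, 5 were separated downward and 0 upward, against 3.92% and 3.37% of all genes tested. With each chromosome centred 2 were separated downward and 0 upward, against 547 and 453 of the 15660 genes tested. The median was then -0.19. Pcdh7 was at 33, 42.7, 58.3 and 63.8 TPM in control and 0.050 to 21.4 TPM (median 2.78) in Atrx-deleted libraries, the highest being mA19d#4 in differentiation medium. Pcdhb22 was at 29.8, 33.5, 48.9 and 41 TPM in control and 18.3 to 23.9 TPM (median 20.7) in Atrx-deleted libraries. Over the 59 tested genes of the clustered protocadherin families, which share sequence and lie together on chromosome 18, 8 were separated downward and 0 upward, beside the same shares of all genes tested. Their median was -0.36, and that of the tested genes of chromosome 18 was -0.25. After centring each chromosome, 4 of the 59 were separated downward and 1 upward, against 547 and 453 of the 15660 genes tested. Pcdhb22 is among both the 23 and the 59, so these sets are not independent.

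Among growth regulators, Cdkn1a was separated upward. It encodes the cyclin-dependent kinase inhibitor p21 and was at 11.1, 9.36, 16.3 and 17.1 TPM in control and 33.6 to 99.6 TPM (median 63.1) in Atrx-deleted libraries, a log2 difference of 2.09 (SE 0.28, adjusted p = 0.00373). Of 21 tested p53 target genes it was the separated one (4.76%, against 7.29% of all genes tested), and their median was -0.03. Without the library labelled mA19d#7 in differentiation medium 4 of the 21 were separated upward, and 1 passed the fit upward and 1 downward. Of the 15660 genes tested 754 were then separated upward, and 683 passed upward and 654 downward. Cdkn1c, another inhibitor of the family and an imprinted gene, was lower, at 1.58 to 3.33 TPM in control and 0.0039 to 0.734 TPM in Atrx-deleted libraries. It passed the filter through control libraries alone, so it could be separated downward only. On line means its adjusted p was 0.0602.

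Of 31 cell cycle and DNA replication genes 2 were separated (6.45%, near the 7.29% of all genes tested), Mcm6 and Mcm7, subunits of the replicative helicase. By the fit 6 passed upward, 10 passed on line means, and 30 of 31 had a positive difference. Mcm6 was at 53.4, 40.4, 25.3 and 24 TPM in control and 53.7 to 83.3 TPM (median 65.9) in Atrx-deleted libraries, and Mcm7 at 80.1, 64.5, 62.7 and 58.7 TPM and 85.6 to 137 TPM (median 122). The list's median was 0.13 in proliferation and 1.53 in differentiation medium. Mki67, a marker of dividing cells, had log2 differences of -0.38 and 1.96 in the 2 media and was not separated.

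Among 40 ribosomal protein genes of the large subunit 4 were separated upward and 0 downward, against 3.37% and 3.92% of all genes tested, with 38 of 40 positive and a median of 0.44. Rpl37a rose from 276 ± 32.9 TPM to 519 ± 93.1 TPM. Rpl19 rose by 0.81 on the log2 scale. Genes of this family have many processed copies, so their levels are uncertain. Without the library labelled mA19d#7 in differentiation medium 9 of the 40 were separated and 13 passed the fit, against 8 with all libraries. Counts over all genes tested rose as well. Upward separation went from 527 to 754 genes, and upward calls from 479 to 683.

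Of 26 DNA damage and telomere genes 3 were separated (11.5%, against 7.29% of all genes tested). Rtel1, a helicase that protects telomeres, rose from 11.8 ± 2.17 TPM to 26.6 ± 3.14 TPM, and Fanci, of the Fanconi anaemia pathway, fell from 62 ± 16.4 TPM to 27.4 ± 7.89 TPM. Terf2, a telomere-binding protein, was separated at 0.38 with an adjusted p of 0.095. Among 25 interferon response genes 3 were separated downward (12%, against 3.92% of all genes tested), of which Ifit3 passed the fit, at 9.43 to 26.6 TPM in control and 1.13 to 9.13 TPM in Atrx-deleted libraries. Tap1, a peptide transporter of antigen presentation, rose by 0.90, Phlda1, an EGF and FGF feedback gene, by 0.82, and Cyp27a1, a sterol hydroxylase, by 2.58 on the log2 scale. Cyp27a1 was at 0.091 TPM or less in control, so it passed the filter through Atrx-deleted libraries alone and could be separated upward only. Id2, a BMP target that restrains differentiation, fell by 0.89, and Jam2, a junction protein, by 0.70, the latter lost after centring. Notch pathway (17 tested), forebrain patterning (17), glycolysis and hypoxia (20), ependymal (8) and muscle (8) lists held 0 separated genes. With 7.29% of all genes tested separated, 0 in lists this short is not read as a result about them. Of 369 zinc finger genes defined by symbol, 11 were separated upward and 30 downward, 11.1% of them against 7.29% of all genes tested.

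**Figure D4:**
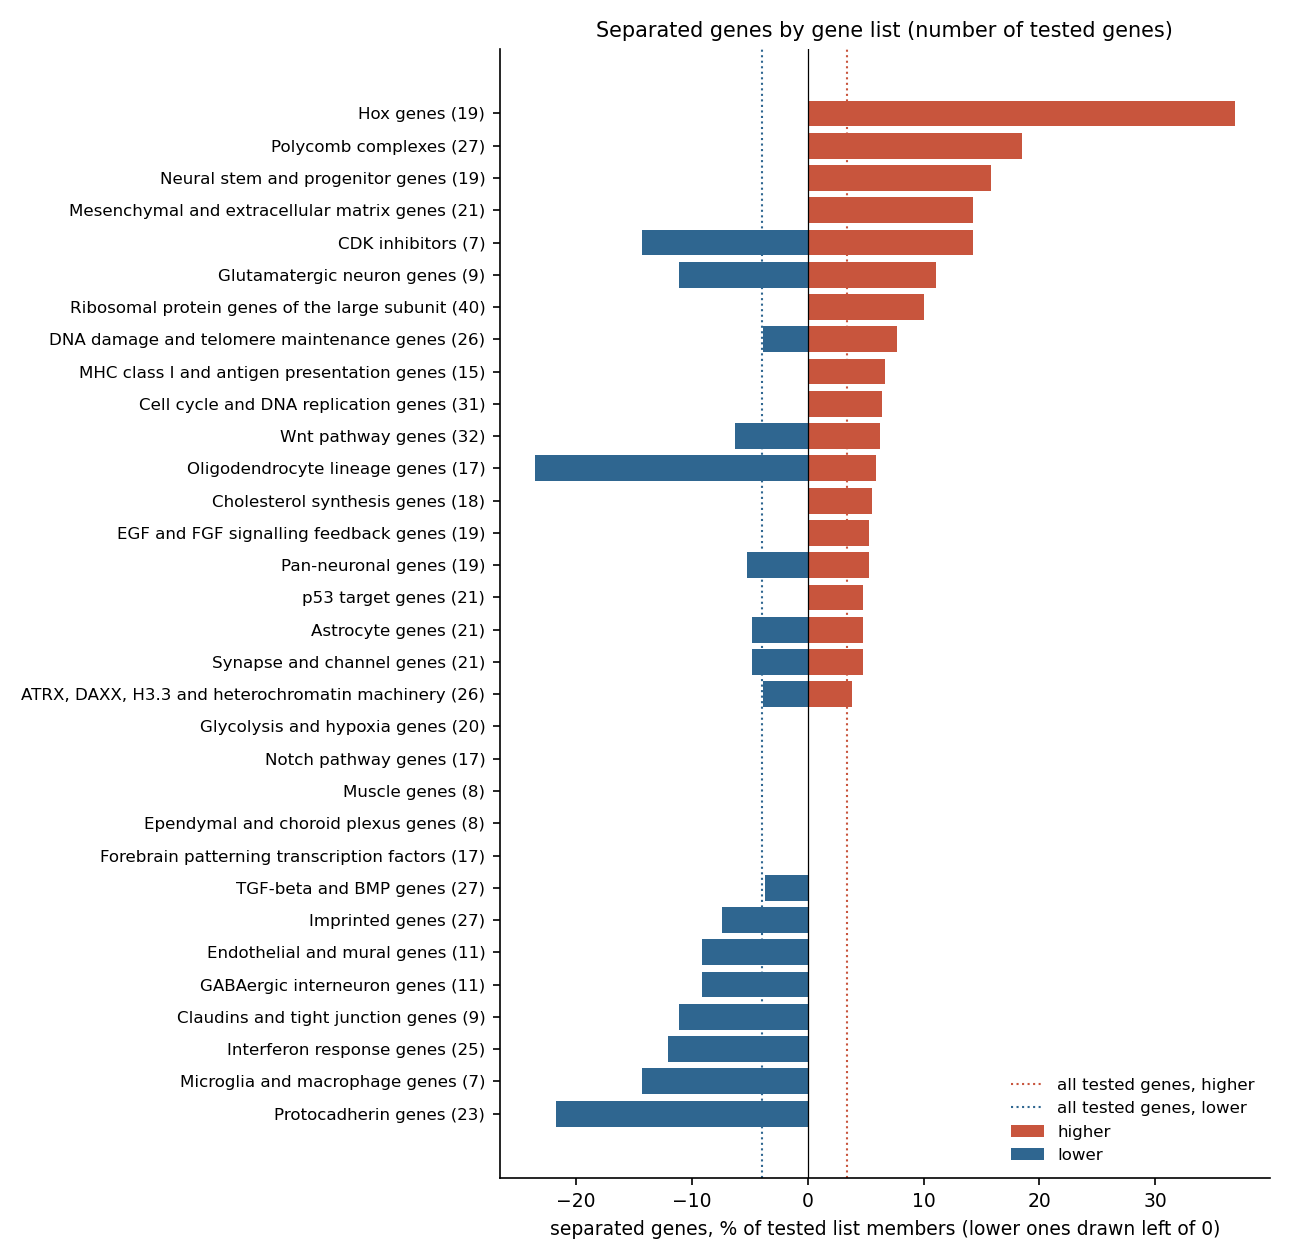
Share of each gene list's tested genes that were separated, upward and downward, with the share over all genes tested as dotted lines. Hox genes reach 7 of 19 upward, with Hoxa9 counted although it needed Atrx-deleted libraries to pass the filter, and the oligodendrocyte lineage 4 of 17 downward.

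The separated genes were unevenly placed along the genome. Of all genes tested 3.37% were separated upward and 3.92% downward. Chromosome 8 held 97 separated genes upward and 11 downward (11.6% and 1.32% of its tested genes). Chromosome 1 held 54 and 5 (5.88% and 0.544%), and chromosome 6 held 52 and 9 (6.59% and 1.14%). Chromosome 7 held 5 upward and 113 downward (0.428% and 9.67%), and chromosome 16 held 1 and 59 (0.207% and 12.2%). Chromosomes 10, 14, 18 and X were also mostly downward, with 50, 32, 32 and 41 falls against 9, 4, 2 and 4 rises. Their downward shares were 6.69%, 5.79%, 7.32% and 7.54%. The median of all expressed genes shifted with them. On chromosomes 1, 6 and 8 the median of each of the 6 Atrx-deleted libraries lay above control, and on chromosomes 7, 10, 12, 16 and 18 below. Medians of Atrx-deleted libraries ran from -0.446 to 0.390 on the log2 scale, and those of control libraries from -0.033 to 0.033. The reference in each medium is the mean of the same control libraries, so control medians mirror each other. Their narrow range is therefore partly built in, and the ranges of the genotypes are not like measures. On chromosome 4 the 3 deleted lines differed, with mA16d#4 at 0.200 and mA19d#4 at -0.252 in proliferation medium. DNA copy number was not analysed here, and its part in these differences was not tested.

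The placement was counted by size of the difference. Of separated genes under 1 on the log2 scale, 158 were higher and 11 lower on chromosomes 1, 6 and 8, and 17 were higher and 238 lower on chromosomes 7, 10, 12, 16 and 18. Of those at 1 or more, 45 were higher and 14 lower on the first set, and 13 and 44 on the second. With each library's chromosome median subtracted, an alternative added after the data had been seen, 690 of the 1141 genes were still separated in the same direction. This held for 272 of the 325 genes at 1 or more and for 418 of the 816 below 1. With centred values Csf2ra was at -4.52, Atrx at -1.07 (adjusted p = 0.00472), Col4a1 at 2.45, Gnao1 at 2.81 and Sox1 at 1.73 on the log2 scale. Of the 74 named genes that passed, 66 passed after centring. Among those that did not, the adjusted p was 0.0971 for Jam2, 0.075 for H3f3a, 0.082 for Sox9, 0.131 for Pcgf6, 0.0696 for Cux2, 0.0599 for Pcdhb22 and 0.069 for Mrps10.

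**Figure D5:**
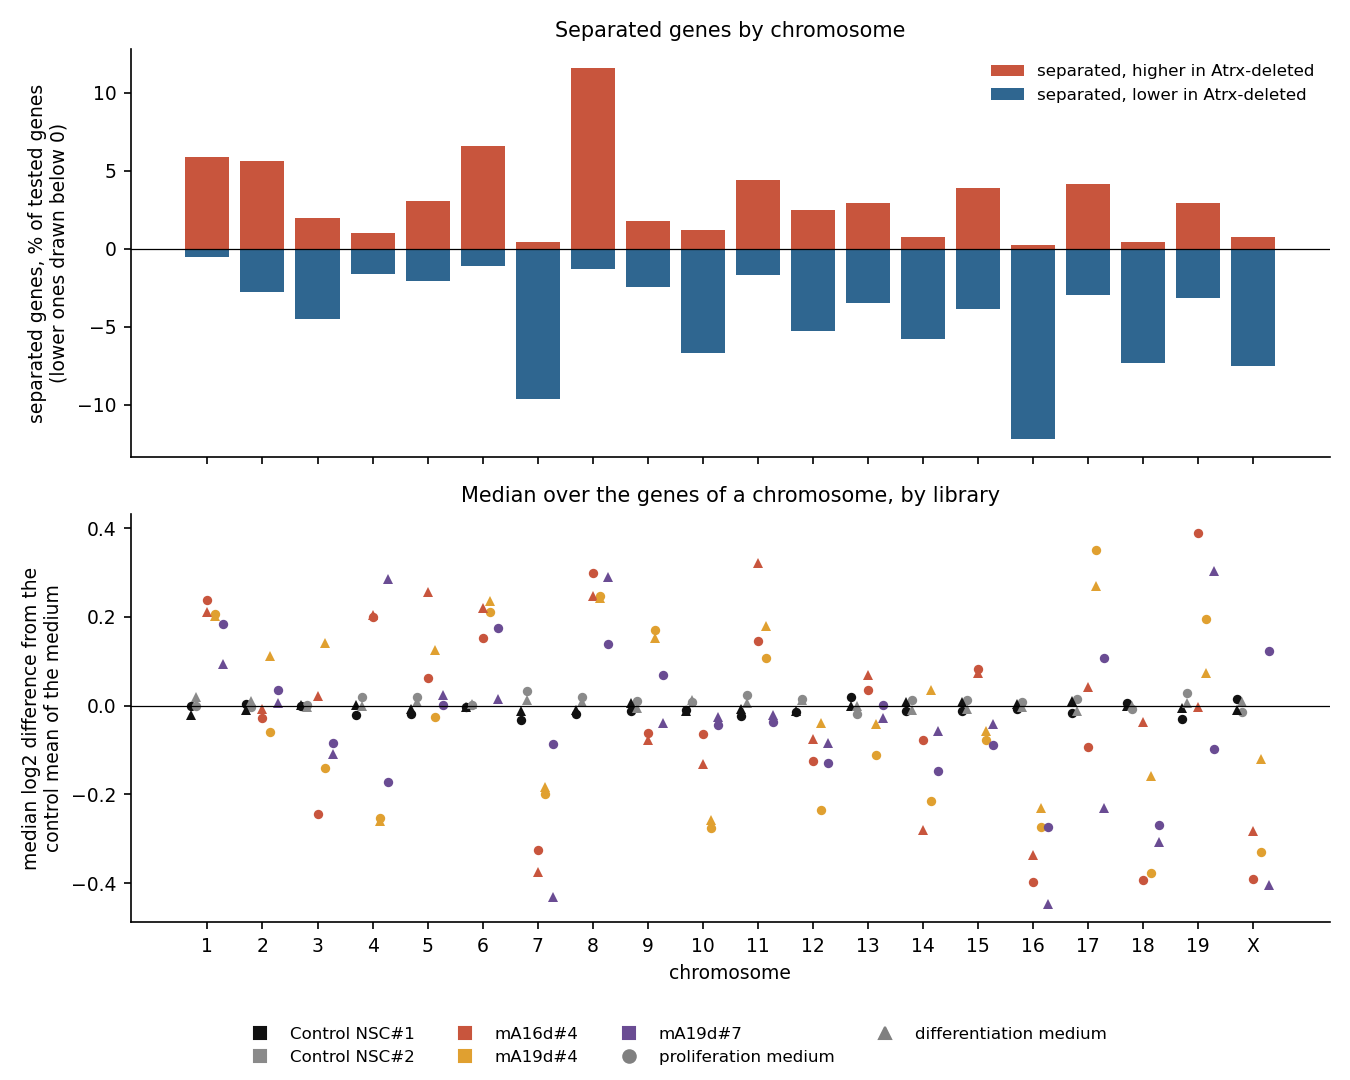
Share of tested genes of each chromosome that were separated, upward and downward, beside the median log2 difference of each library from control on that chromosome. Chromosome 8 has the largest upward share (11.6%) and chromosome 16 the largest downward share (12.2%), and their medians lie on the same sides. Control libraries form their own reference, so their medians mirror each other and their narrow range is partly built in.

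Runs of neighbouring separated genes occurred in both directions. The longest were the 5 genes from Hoxa2 to Hoxa4 and the 5 from Hoxa6 to Hoxa10. Next came 4 genes on chromosome 2 that include Adnp, which encodes a chromatin protein of neural development, and overlap each other in part. The distal end of chromosome 2, from 180000001 to 185000000, held the densest bin of 5 Mb, with 21 of 49 tested genes separated upward (42.9%) and a median log2 difference of 0.79. Rtel1 lies in that bin.

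The spread between lines was as follows. The median SD between line means on the log2 scale was 0.168 over the 3 deleted lines and 0.084 over the 2 control lines for separated genes, and 0.231 and 0.113 for all genes tested. With 2 control lines, single libraries weighed heavily. Leaving out Control NSC#1 left 28 genes passing the fit, and leaving out Control NSC#2 left 55, against 980. Leaving out both libraries of mA19d#7 gave 1408. Of the 74 named genes that passed, 14 passed under the removal of each library and each line in turn.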

How the data were processed

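Total RNA libraries of 10 samples from 5 lines were analysed. Reads were aligned with STAR to mm10, per the submitters' processing notes. Its version, the gene models and the quantifier are each not given in the sources used here. The values are log2 values deposited by the authors. From the values, each library holds the same sorted set (largest spread 0), so they were quantile-normalised before deposit, which hides a change of total expression. The lowest value is -8, at 1213 genes per library, and the sum of 2 to the power of the values is 997524 in each library. The unit was therefore taken as log2 TPM, where linear TPM had been assumed. Depth is unknown, so no counting error can be given.

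The limma package (3.58.1, in R 4.3.3) was run on log2(TPM + 1) with terms for genotype and medium and a trended variance, leaving 7 residual degrees of freedom. Fold changes on this scale understate those of low genes. Genes with at least 1 TPM in 2 libraries were tested, and p-values were adjusted by Benjamini-Hochberg over the 15660. A gene under 1 TPM throughout 1 genotype passed this filter through the other alone and could be separated in only 1 direction. Interaction used 4 group means. The script was tested on simulated data.

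The pairing comes from the line names: each line gave a library in both media. Deviations from group means correlated across media at 0.062 in the control lines, 0.159 in mA16d#4, 0.404 in mA19d#4 and -0.194 in mA19d#7.

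Genes were named by rule. Of separated genes with adjusted p under 0.05, at least 1 on the log2 scale and a higher-genotype mean of 5 TPM or more (226 genes, 116 higher and 110 lower, 8 of them clone-type symbols passed over), the 15 largest rises and falls were named. Added were genes silent in 1 genotype, up to 3 per list and direction, 14 fixed genes, the genes nearest the rule's edge, and the most even and most widely separated genes. The genes and the 33 lists (710 genes) were chosen with earlier results of these data known. Gene positions are those of GENCODE M21 (GRCm38), found for 1138 separated genes; promoters are from RefSeq. No promoter entry was used for Tbx15 or Slc16a13. Results of a few genes that the rule picks out are left out. Alternatives covered the pseudocount, filter, scaling, model and each library and line.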

Additional observations from a re-analysis of the deposited data

Results flagged for a closer look

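Tmem132b, a transmembrane protein of neural cells, was flagged because its genotype difference differed between media. Control libraries were at 0.483, 2.44, 87.6 and 105 TPM, and Atrx-deleted libraries at 0.012 to 0.416 TPM. The log2 difference was -0.84 in proliferation and -6.49 in differentiation medium, an interaction of -5.65 with an adjusted p of 0.0282 by limma over all genes tested. The gene was lower in 6 of 6 Atrx-deleted libraries, and the control lines rose between media while the deleted lines stayed low.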

How the results depend on the processing

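Membership and calls were recomputed under 31 alternatives. Of the 87 named genes 74 passed, and none of these changed direction under an alternative run. Each lost its call under at least 1, since differentiation medium alone left 2 of them. Paired by line through the 5 line means (a replicate block), 330 genes passed (181 higher, 149 lower), and with fewer values to compare 6753 were separated (3370 higher, 3383 lower). Under it 42 of the 74 kept their call. Array weights per genotype gave 1770 genes (863 higher, 907 lower), no filter 613 (285, 328) and no medium term 383 (194, 189). Proliferation medium alone gave 62 (35, 27), with 5943 separated (2782, 3161), and differentiation medium alone 2 (0, 2), with 5686 separated (2846, 2840). The cause of the differing counts was not tested. Leaving out each library or line gave 28 to 1408 genes passing (14 to 683 higher, 14 to 726 lower) and 1253 to 2302 separated (582 to 1135 higher, 671 to 1167 lower). The lowest counts came from leaving out a control line, where the remaining line's 2 libraries stood for the genotype. Other settings kept both counts within 1.5 times. Of genes that did not pass, the log2 difference of Daxx ran from -0.206 to 0.162 with a line or library left out, H3f3b was at 0.21 in differentiation medium alone, and Mki67 at -0.377 in proliferation medium alone. Depth is unknown, so values near 0.0039 TPM cannot be told from 0.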
